A study of Capra hircus with 30 samples.

Results

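Late follicle growth within the high fertility class of Ji'ning grey goats was examined by comparing granulosa cells of large follicles (HLG) with those of medium follicles (HMG). The comparison holds 10 of the 30 libraries of the series, 5 in each group, chosen by the group name and number in their labels (5, 7, 8, 9 and 10). All 10 come from goats of the class with large litters, and no agent or genetic change was applied. Animal age is not given in the sources used here. Total RNA was depleted of ribosomal RNA and sequenced. According to the methods, follicles of several goats were taken for a class, and their granulosa cells were then split by size into 5 samples of few cells. It is not stated which animals a library represents, so p-values measure the spread between these libraries, which may be technical. The same 2 sizes in the low fertility class, LLG and LMG, were set beside the main comparison and share no library with it.

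Granulosa cells line the follicle, nourish the oocyte and make oestradiol and inhibin. In medium follicles they divide under follicle stimulating hormone, whose receptor acts through cAMP, while in large follicles they gain the receptor for luteinizing hormone and prepare for ovulation. Members of the inhibin, activin, BMP and TGF-beta families, NOTCH signalling, insulin-like growth factors and KIT ligand carry signals between granulosa cells, theca cells and the oocyte.

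Values are FPKM, fragment numbers corrected for transcript length and for sequencing depth. A library had between 1452 (HLG-8) and 8117 (HMG-10) of 20125 features above 0. A single fragment added 0.0654 to 0.0826 FPKM to a gene 1 kb long in the 9 libraries where this step could be read, a range of 1.26-fold. The step was sought only within a narrow preset range, and a larger step that is a multiple of it would read the same. These values therefore do not show that depth was near equal. The step could not be read in HLG-5, which was also not found in the study's list of mapping results. The 87 features above 0 in all 10 libraries held 86.6% to 89.74% of the FPKM in 9 libraries and 78.54% in HLG-5. HLG-5 and HMG-8 stood apart, as described beside the results that they touch. Fewer cells of a type and less RNA per cell cannot be told apart in these libraries.

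Fewer features were seen in most large follicle libraries, but the groups overlapped. Of the HLG libraries, HLG-5 had 674 features at 1 FPKM or more, HLG-7 had 1411, HLG-8 had 717, HLG-9 had 1738 and HLG-10 had 2405. Of the HMG libraries, HMG-5 had 2184, HMG-7 had 2069, HMG-8 had 786, HMG-9 had 2274 and HMG-10 had 2588. HMG-8 lay with the lowest HLG libraries, and HLG-10 lay with the highest HMG libraries. The means were 1389 ± 728 in HLG and 1980 ± 695 in HMG (SD, n = 5 each), a difference of -591.2. The spread within each group was larger (exact permutation test, two-sided, p = 0.2222, smallest possible p 0.00794). Without HMG-8 the difference was -889.75 (exact permutation test, p = 0.0635). At 10 FPKM or more the order was the opposite, with 221 ± 80.7 features in HLG and 166 ± 75.6 in HMG (SD, n = 5 each; exact permutation test, p = 0.3333).

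**Figure D1:**
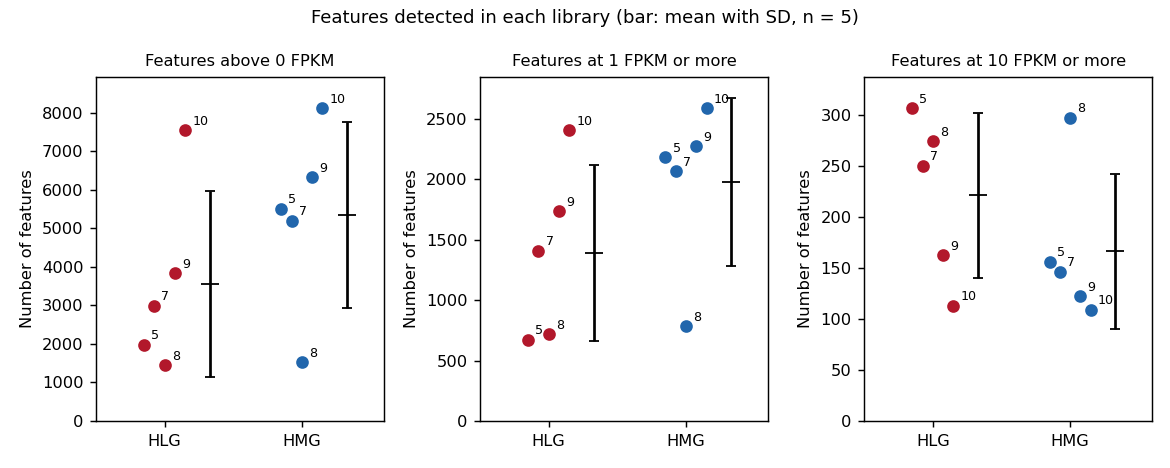
The number of features above 0, at 1 or more and at 10 or more FPKM (y axes) is plotted for each HLG (red) and HMG (blue) library, labelled by its number, with the mean and SD of 5 libraries as a black bar. HMG-8, with 786 features at 1 FPKM or more, sits apart from the other HMG libraries at 2069 to 2588.

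Which features were above 0 also differed from library to library. In HLG, 2 libraries shared a median of 13.0% of the features that either of them showed, and in HMG 29.9%. This share is limited by the number of features in the smaller library. HMG-8 shared 12.2% to 13.3% with the other HMG libraries, while HLG-9 and HLG-10 shared 26.1% and HLG-10 and HMG-10 shared 39.1%. Within groups the mean Spearman correlation was 0.1191 in HLG and 0.1189 in HMG, which differ by 0.0002 (n = 5 each, exact permutation test, p = 0.9921). Features without an NCBI gene number held 72.25% ± 2.62 of the FPKM in HLG and 73.17% ± 1.1 in HMG (SD, n = 5 each). That difference of -0.92 percentage points was within the spread as well (exact permutation test, p = 0.5079).

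The most abundant named genes were seen in every library of both sizes. The named genes with the highest medians in both sizes were PXMP4, a peroxisomal membrane protein, SGCB, a sarcoglycan of the cell membrane, EGFR, the epidermal growth factor receptor that relays the ovulatory signal in follicles, and NIPSNAP1, a mitochondrial protein. PEX2, needed to build peroxisomes, completed the leading 5 in HLG, and BRI3BP those in HMG. EGFR was at 54.17, 65.38, 40.56, 40.85 and 55.89 FPKM in HLG-5, HLG-7, HLG-8, HLG-9 and HLG-10. In the HMG libraries of the same numbers it was at 76.79, 70.58, 37.21, 35.75 and 52.53 FPKM. The HLG values lay inside the HMG range, and EGFR differed by -0.04 ± 0.50 (SE) on the log2(FPKM + 1) scale (limma, adjusted p = 1). EGFR was also at 67.89 FPKM in LLG-7, where 301 features were above 0, and at 18.51 in LLG-5, where 875 were. Whether such levels in libraries with few features reflect the cells was not tested. PXMP4 ranged from 24.22 to 81.74 FPKM in HLG and from 53.20 to 104.23 in HMG, a difference of -0.55 ± 0.48 (limma, adjusted p = 0.869). SGCB ranged from 51.57 to 98.66 FPKM in HLG and from 38.44 to 139 in HMG, again with overlap (-0.31 ± 0.49, adjusted p = 0.951, limma). Only 24 features with a gene symbol were above 0 in all 10 libraries, and they held 0.7% of the FPKM on average in either size.

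The features that differ between large and medium follicles were then sought with limma, with all 6 groups of the series in 1 fit. Of 6058 features tested, 0 passed an adjusted p of 0.05 (0% called), and the lowest adjusted p was 0.216. At an unadjusted p under 0.05 there were 366 features (6.04%). Of these 78 were higher in HLG (1.29% of those tested) and 288 were lower (4.75%). The median difference of all features tested was -0.14 on the log2(FPKM + 1) scale, and 63.6% lay below 0. With the number of features above 0 in each library as a covariate, the counts were 119 higher and 194 lower, and the median was -0.022. Single libraries moved the number higher in HLG as well. It was 136 without HLG-5 (212 lower), 132 without HLG-8 (217 lower) and 49 without HMG-8 (416 lower). Fisher's exact test of detection, counting the libraries above 0 on each side, called 0 of 20125 features, with 159 at an unadjusted p under 0.05, of which 5 were seen in more HLG and 154 in more HMG libraries. With 5 libraries a side Fisher's test cannot give a p below 0.00794, and 13 of the 20125 features reached this floor. With so few at the floor, the adjusted p was 1 for all features. A call would have needed many more features at the floor, so this test had little power. In simulated data with the real values of these libraries, where each value of 0 was kept, 7.5% of 200 features raised 16-fold in HLG were called by limma. Their median difference was only 0.93, since zeros stayed at 0. Of 200 features set above 0 in 5 HLG and 0 HMG libraries, 1% were called.

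**Figure D2:**
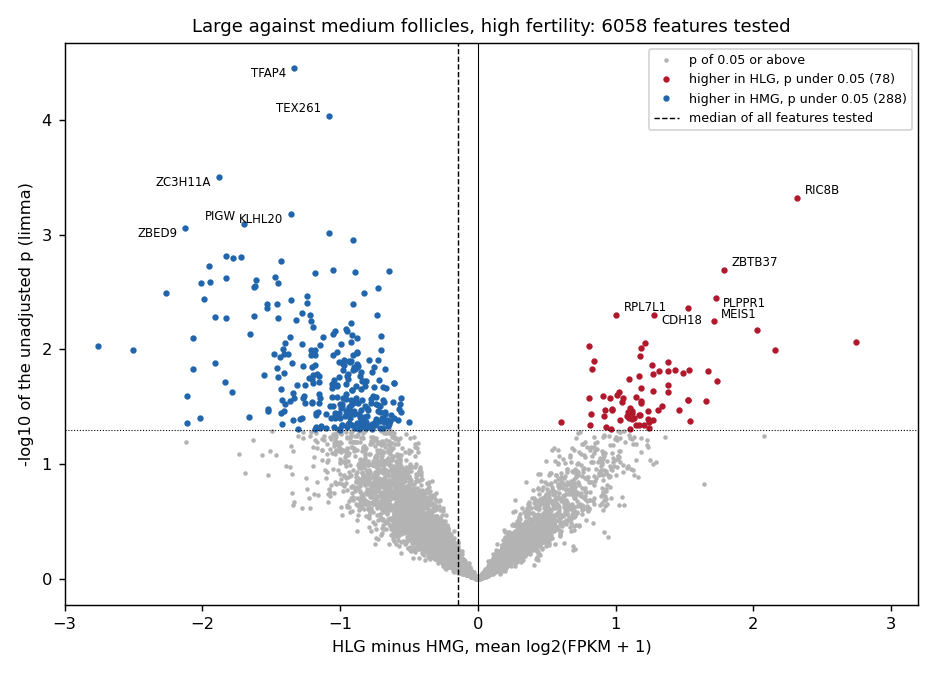
The difference between HLG and HMG in mean log2(FPKM + 1) (x axis) is plotted against -log10 of the unadjusted limma p (y axis) for the 6058 features tested. The 78 features higher in HLG (red) and 288 lower in HLG (blue) lie above the dotted line, which marks an unadjusted limma p of 0.05, and the dashed line marks the median of -0.14.

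None of the genes named in the following passed the adjusted threshold with all libraries in the fit, so the values describe these libraries. RIC8B, a chaperone and exchange factor of stimulatory G protein alpha subunits, had the lowest p among genes higher in large follicles. It was at 21.34, 8.97, 9.87, 3.13 and 1.25 FPKM in HLG-5, HLG-7, HLG-8, HLG-9 and HLG-10, and so above 0 in 5 of 5. In medium follicles it was listed at 0 in HMG-5, HMG-7 and HMG-8, at 1.1 FPKM in HMG-9 and at 2.46 FPKM in HMG-10. The groups overlapped only between HMG-10 and the lowest HLG library. The difference was 2.32 ± 0.61 (SE) on the log2(FPKM + 1) scale (limma, unadjusted p = 0.000476, adjusted p = 0.636). Its relative RIC8A, which serves other alpha subunits, was above 0 in HLG-5 (11.25 FPKM) and HLG-9 (2.45 FPKM) and listed at 0 in the other 8 libraries.

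ZBTB37, a zinc finger protein, was at 10.80 FPKM in HLG-5, 6.36 in HLG-7, 0.01 in HLG-8, 2.08 in HLG-9 and 1.61 in HLG-10. In HMG it was above 0 in 3 of 5 libraries, at no more than 0.30 FPKM. Thus 4 of 5 HLG libraries lay above every HMG library, and the difference was 1.79 ± 0.54 (limma, adjusted p = 0.636). NT5E, the ectoenzyme that makes adenosine from AMP at the cell surface, was listed at 0 in all 5 HMG libraries. In HLG it was at 8.89, 3.58, 0.47 and 0.02 FPKM in HLG-5, HLG-7, HLG-8 and HLG-10, and at 0 in HLG-9. The amino acid transporter SLC6A14 was also at 0 in all HMG libraries and was seen in HLG-7 (1.25 FPKM), HLG-9 (0.53) and HLG-10 (3.79).

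The other genes among the 10 named higher ones were seen in 3 or 4 of 5 HLG libraries. MEIS1, a homeobox transcription factor, reached 24.23 FPKM in HLG-8 and was at 0.05 FPKM or less in every HMG library, but HLG-5 was at 0. DUSP16, a phosphatase of the stress-activated MAP kinases, was at 14.53, 1.37 and 0.87 FPKM in HLG-7, HLG-9 and HLG-10 and at 0.12 FPKM in HMG-10 alone among the medium libraries. CDH18, a cadherin, was above 0 in 3 HLG libraries with 13.77 FPKM in HLG-7, against 0.02 FPKM in HMG-7. PLPPR1, RPL7L1 and PAPOLB were each above 0 in 4 of 5 HLG libraries and in 1, 1 and 2 HMG libraries. Of these, PLPPR1 reached 21.02 FPKM in HLG-8. Among the 10 genes the difference ran from 0.81 ± 0.30 for SLC6A14 to 2.32 ± 0.61 for RIC8B, and the adjusted p from 0.636 to 0.733 (limma).

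In medium follicles, the gene with the lowest p of all was TFAP4, a transcription factor of the helix-loop-helix class. It was listed at 0 in all 5 HLG libraries. In HMG it was at 1.26, 4.81, 1.32 and 2.38 FPKM in HMG-5, HMG-7, HMG-9 and HMG-10, and at 0 in HMG-8. The difference was -1.34 ± 0.29 (limma, unadjusted p = 3.56e-05, adjusted p = 0.216). Without HMG-8 it passed the threshold at an adjusted p of 0.00118 in limma. Outside HMG only LSG-8 (0.92 FPKM) lay above the filter limit of 0.5 FPKM, so TFAP4 was tested through the group where it was high. The fit shares its spread with groups where TFAP4 was almost always at 0. This p therefore does not measure the spread between HLG and HMG libraries alone. TEX261 was at 0 in all HLG libraries and at 2.64, 2.14, 0.47 and 1.55 FPKM in HMG-7, HMG-8, HMG-9 and HMG-10, with HMG-5 at 0 (-1.08 ± 0.25, adjusted p = 0.28, limma). Without HMG-5 its adjusted p was 0.00859 (limma). Outside HMG, TEX261 was above 0.5 FPKM only in HSG-8 (0.52 FPKM) and LMG-8 (0.54). For both genes, a call came only when the 1 medium library at 0 was left out. It also needed the medium libraries where the gene was high, since the gene otherwise failed the filter. Of 19 alternative fits, TFAP4 was tested in 13 and TEX261 in 12.

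ZC3H11A, a zinc finger protein of mRNA export, was seen in every medium library and in no large one. It was at 2.23, 1, 22.45, 1.98 and 0.51 FPKM in HMG-5, HMG-7, HMG-8, HMG-9 and HMG-10, so that HMG-8 stood above the others. The difference was -1.88 ± 0.48 (limma, adjusted p = 0.636). KLHL20, an adaptor of the cullin-3 ubiquitin ligase, was at 0.46 to 5.2 FPKM in the HMG libraries and at 0.04 FPKM in HLG-10 only. TMPO, a protein of the nuclear lamina, was at 1.83 to 5.94 FPKM in HMG and at no more than 1.16 FPKM in HLG, so the groups did not overlap (-1.83 ± 0.54, adjusted p = 0.636, limma). ZBED9, of transposon origin, did not overlap either, at 0.81 to 22.88 FPKM in HMG and up to 0.23 FPKM in HLG.

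The other genes among the 10 named lower ones were seen in 4 or 5 of 5 HMG libraries. SPRY2, an inhibitor of receptor tyrosine kinase signalling, was at 3.56, 1.55, 0.12 and 0.83 FPKM in HMG-5, HMG-7, HMG-9 and HMG-10, and at 0.04 FPKM in HLG-7 only. PIGW, an enzyme of GPI anchor synthesis, was above 0 in 4 HMG libraries at 2.26 to 6.97 FPKM and in HLG-10 at 0.33 FPKM. C28H10orf107 was above 0 in 5 of 5 HMG libraries at 0.55 to 5.72 FPKM and in HLG-9 at 1.29 FPKM. ATP5S was at 0 in all HLG libraries and at 4.19, 16.48, 0.81 and 1.88 FPKM in HMG-7, HMG-8, HMG-9 and HMG-10. Among the 10 genes the difference ran from -2.13 ± 0.60 for ZBED9 to -0.90 ± 0.26 for SPRY2 (limma).

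Presence in every library of 1 size and absence from the other was found in 1 direction. There were 13 features above 0 in all 5 HMG libraries and at 0 in all 5 HLG libraries (0.0646% of 20125), and 0 features of the opposite kind. Besides ZC3H11A they included CHL1, an adhesion molecule, MIEF1, a factor of mitochondrial fission, SERAC1, which remodels phosphatidylglycerol, and CNNM2, linked to magnesium transport. They also included KDELR2, a receptor that returns proteins to the endoplasmic reticulum, BIRC3, an inhibitor of apoptosis, the lipid kinase PIP4K2B, the galectin-like LGALSL and the channel subunit UNC80. BIRC3 was at 1.73, 0.03, 1.47, 2.31 and 1.93 FPKM in HMG-5, HMG-7, HMG-8, HMG-9 and HMG-10. UNC80 stayed at 0.02 to 0.37 FPKM, so being above 0 can rest on few fragments. The other 3 were PRPF38B, ANKRD11 and MXLOC_1191473. In all, 3630 features were above 0 in more HLG than HMG libraries (18.0%) and 8768 in more HMG than HLG libraries (43.6%). These counts were 3145 and 8901 without HLG-5 and HMG-8.

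Among features tested, 28 had every HLG library below every HMG library (0.462%) and 1 had every HLG library above (0.0165%). The latter was LOC108636278, a protein-coding gene without a symbol, chosen after its values were seen. It was at 20.48, 59.26, 31.3, 19.69 and 23.23 FPKM in HLG-5, HLG-7, HLG-8, HLG-9 and HLG-10. In HMG-5, HMG-7, HMG-8, HMG-9 and HMG-10 it was at 6.25, 17.91, 3.2, 16.48 and 17.91 FPKM. The gap between the groups was narrow, from 17.91 to 19.69 FPKM, and the difference was 1.36 ± 0.70 (limma, adjusted p = 0.806).

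**Figure D3:**
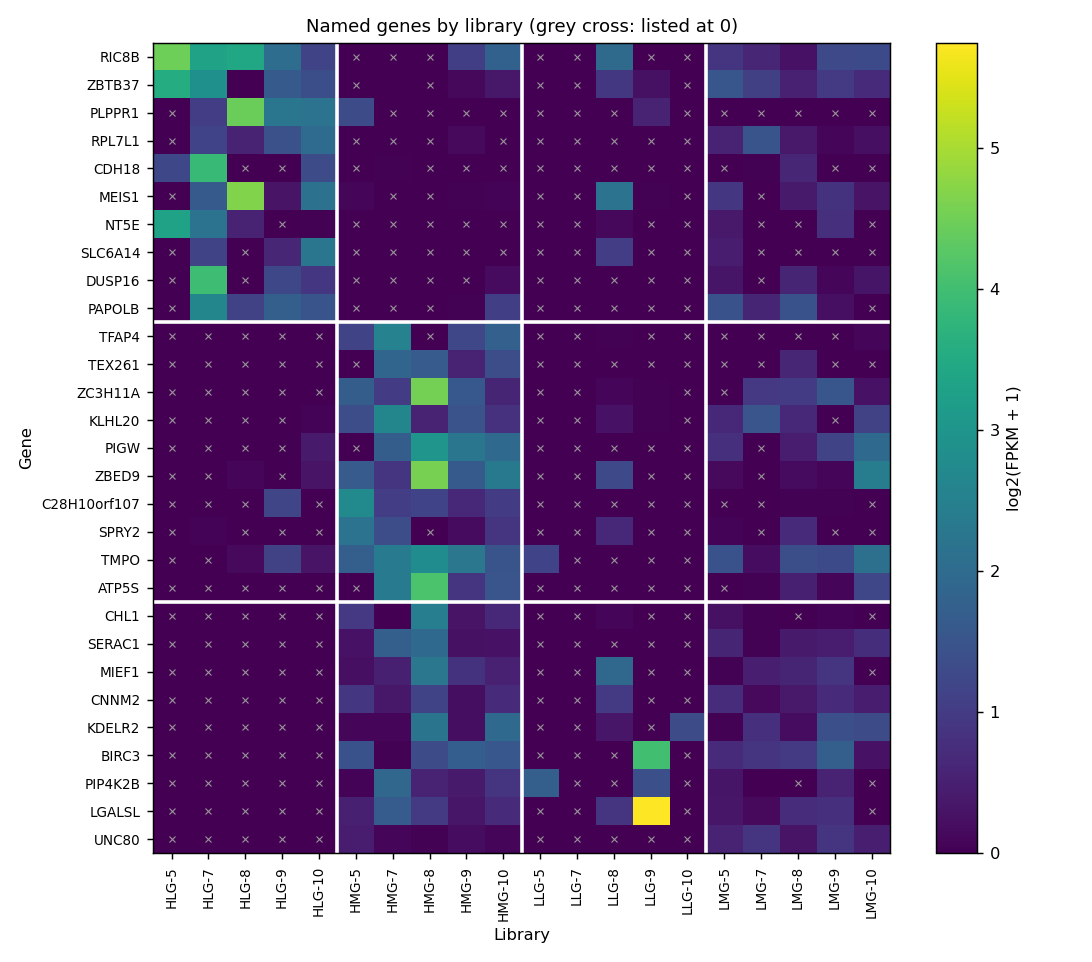
log2(FPKM + 1) (colour) of the genes named by rule (rows) is drawn for each library (columns) of HLG, HMG, LLG and LMG, and a grey cross marks a value of 0. The upper block holds the 10 genes higher in HLG, the middle block the 10 lower in HLG, and the bottom block further genes seen in 5 of 5 HMG and 0 of 5 HLG libraries.

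The pathways of the growing follicle were examined with 18 lists. They hold 544 genes of the table, of which 227 were tested. At an unadjusted p under 0.05, 3 were higher and 9 lower in HLG (5.3% of those tested, against 6.04% of all features), and the lowest adjusted p was 0.636 (limma). The list medians are given beside the median of -0.14 for all features tested.

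Gonadotropin receptors and steroid synthesis were hardly seen. Of 16 genes, 0 were above 0 in more HLG libraries (against 18.0% of all features) and 9 in more HMG libraries (56.2%, against 43.6%), with 5 detections in HLG and 20 in HMG. FSHR, the receptor for follicle stimulating hormone, was listed at 0 in all 10 libraries. LHCGR, the receptor for luteinizing hormone, was at 0.03 FPKM in HLG-10 and 0.92 in HMG-7 and at 0 elsewhere. CYP19A1, the aromatase that makes oestradiol, was seen in HMG-10 alone (1.85 FPKM). STAR, which moves cholesterol into mitochondria, was seen in HMG-9 (3.06 FPKM) and HMG-10 (0.03). CYP11A1, the side chain cleavage enzyme listed as LOC102173131, was seen in HMG-7 (0.38 FPKM) and HMG-10 (0.04). HSD17B1 was seen in HLG-9 (0.04 FPKM) and HMG-9 (2.83), NR5A1 in HMG-10 (1.31), NR5A2 in HMG-5 (0.02) and HMG-10 (0.09), SCARB1 in HMG-5 (1.20) and HSD17B7 in HMG-7 (0.17). CYP17A1 (as LOC102182663), FDX1 and FDXR were at 0 in all 10 libraries. Of the transcription factors, GATA4 was at 0 in all HLG libraries and above 0 in 4 of 5 HMG libraries at 0.01 to 1.01 FPKM. GATA6 was above 0 in 2 HLG and 3 HMG libraries, highest in HMG-5 (3.51 FPKM).

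The markers of granulosa cells were therefore checked against the label. Of 11 such genes in the table, between 0 and 5 were above 0 in an HLG library and between 0 and 5 in an HMG library. Their summed level ran from 0 to 28.29 FPKM in HLG and from 0 to 9.52 FPKM in HMG. AMH was at 0 in all 10 libraries as well, and INHA, the inhibin alpha subunit, was seen in HLG-5 alone (1.72 FPKM). INHBA, the beta A subunit of inhibin and activin, was at 20.44 FPKM in HLG-5, 2.22 in HLG-9 and 0.35 in HLG-10. In HMG it was at 0.05, 0.18 and 0.03 FPKM in HMG-5, HMG-9 and HMG-10, and the difference was 1.24 ± 0.67 (limma, adjusted p = 0.817). INHBB was seen in HLG-5 (2.51 FPKM), HLG-10 (0.39), HMG-5 (0.29) and HMG-9 (1.28). FST, follistatin, was at 21.56 FPKM in HLG-8 and 1.08 in HLG-10, against 0.31 FPKM in HMG-9. SERPINE2 was seen in HLG-5 (3.62 FPKM) and HLG-10 (0.03) only. Most libraries thus showed few of these markers, and genes that most cells use were often at 0 in the same libraries, with 0 of 28 seen in HMG-8 and 3 in HLG-8. Where few of the 28 were seen, a value of 0 for a marker can therefore not be read as its absence from the cells. Marker counts did not follow the 28 in every library. HMG-9 showed 7 of the 28 and 5 of the 11 markers, and HLG-9 showed 5 of the 28 and 3 of the 11. HLG-5, HLG-10, HMG-10 and HMG-5 showed 23, 21, 20 and 19 of the 28. They showed 4, 5, 4 and 4 of the 11 markers, with FSHR and AMH at 0. The cell content of these libraries was not tested.

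Markers of other cells were also at 0 in most libraries. A theca and stroma gene was above 0 in a mean of 1.56 HLG and 1.33 HMG libraries and an oocyte gene in 0.57 and 0.43, compared with 1.18 in either size for a granulosa cell gene. The theca and stroma list of 9 genes summed to 0 to 4.76 FPKM in HLG and 0 to 1.68 in HMG, led by PDGFRA, which was above 0 in 4 libraries of each size (up to 4.67 FPKM in HLG-5). HLG-10 showed 8 of these 9 genes, which included ACTA2 at 0.07 FPKM. The oocyte list of 7 genes summed to at most 7.2 FPKM in HLG and 6.93 in HMG. Within it DDX4 was at 7.14 FPKM in HLG-7 and GDF9 at 0.06 in HLG-7 and 0.24 in HLG-10. The immune list of 9 genes reached 1.38 FPKM in HLG and 4.29 in HMG, with CD74 at 0.05 FPKM or less and CSF1R at 0.41 FPKM in HLG-9 and 0.08 in HMG-10. The endothelial list of 8 genes reached 1.18 FPKM in HLG and 4 FPKM in HMG, with CDH5 in HLG-8 (0.73 FPKM), HMG-5 (2.60) and HMG-9 (1.39) and VWF in HLG-10, HMG-5 and HMG-10 at 0.06 to 0.25 FPKM. The erythroid list of 3 genes reached 0.53 FPKM, from ALAS2 in HLG-10. The part of such cells in the results was not tested.

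As for features in general, genes of the BMP and NOTCH lists were more often seen in more medium than large libraries. Of features above 0 in any of the 10 libraries, 8768 of 15693 were above 0 in more HMG than HLG libraries. The same was so for 14 of 24 such genes in the BMP and TGF-beta list, close to features in general, and for 13 of 17 in the NOTCH list. In the inhibin, activin and AMH system 4 of 13 genes were above 0 in more HMG libraries (30.8%) and 3 in more HLG libraries (23.1%). The median of this system was 0.03 over 5 tested. Its activin receptor ACVR2A was above 0 in 5 of 5 HMG libraries (0.04 to 1.59 FPKM) and in HLG-9 only (1.33 FPKM). ACVR2B was above 0 in 4 HMG and 2 HLG libraries (-0.84 ± 0.42, adjusted p = 0.806, limma). In the BMP and TGF-beta list, 14 of 26 genes were above 0 in more HMG libraries (53.8%, against 43.6% of all features) and 4 in more HLG libraries (15.4%, against 18.0%), and the median was -0.12 over 13 tested. TGFBR1, the type I TGF-beta receptor, was at 1.20, 0.01, 2.31 and 1.29 FPKM in HMG-5, HMG-7, HMG-9 and HMG-10, and at 0.17 and 0.10 FPKM in HLG-8 and HLG-10. Its difference was -0.74 ± 0.35 (limma, unadjusted p = 0.0403, adjusted p = 0.793). In the NOTCH list, 13 of 18 genes were above 0 in more HMG libraries (72.2%, against 43.6% of all features) and 1 in more HLG libraries (5.6%, against 18.0%), and the median was -0.27 over 5 tested. There the target gene HEY2 reached 3.35 FPKM in HLG-10 and 3.41 in HMG-5, and the coactivator MAML2 was above 0 in 3 HLG and 4 HMG libraries.

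Growth factor and hormone signalling was mixed. IGF1 was above 0 in 4 libraries of each size, at up to 5.76 FPKM in HLG-5 and 3.94 in HMG-7 (0.34 ± 0.61, adjusted p = 0.954, limma). The GH, insulin and IGF list of 18 genes had a median of 0.01 over 10 tested. KITLG, the granulosa cell ligand of the oocyte receptor KIT, was above 0 in 2 HLG and 4 HMG libraries, at up to 2.75 FPKM in HLG-7 and 2.06 in HMG-5. KIT itself was at or under 0.34 FPKM in 4 HMG libraries and at 0.01 FPKM in HLG-10. The cAMP list had a median of 0.06 over 13 tested. At an unadjusted p under 0.05 in limma, 2 of these were higher and 0 lower (against 1.29% and 4.75% of all features tested). These 2 were RIC8B and RIC8A themselves. The list was chosen with earlier results of these data known, so their count is no separate evidence on the pathway. By detection, 13 of the 29 genes of the cAMP list were above 0 in more HMG libraries (44.8%, against 43.6% of all features). In more HLG libraries there were 5 (17.2%, against 18.0%), so both shares were near those of all features. The detections were 56 in HMG and 44 in HLG. Steroid hormone receptors had a median of -0.65 over 5 tested, the lowest list median. Of these 8 genes, 6 were above 0 in more HMG libraries (75.0%, against 43.6% of all features) and 0 in more HLG libraries (against 18.0%). ESR1, the oestrogen receptor alpha, was at 0.12, 0.31, 10.73, 1.80 and 1.32 FPKM in HMG-5, HMG-7, HMG-8, HMG-9 and HMG-10. In HLG it was at 0.22, 0.66 and 0.03 FPKM in HLG-8, HLG-9 and HLG-10 (-1.15 ± 0.56, unadjusted p = 0.0481, adjusted p = 0.806, limma).

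The ovulatory response, adhesion, survival and division lists each held 1 or no gene below an unadjusted p of 0.05. EGR1, an early response transcription factor, was at 3.95, 2.97, 0.41 and 1.13 FPKM in HMG-5, HMG-7, HMG-9 and HMG-10, and at 0.80 FPKM in HLG-10 only (-1.01 ± 0.39, adjusted p = 0.733, limma). GJA1, the connexin of granulosa cell gap junctions, was at 1.25, 4.92 and 2.22 FPKM in HMG-5, HMG-9 and HMG-10, and at 0.13 and 0.04 FPKM in HLG-9 and HLG-10 (-1.04 ± 0.49, adjusted p = 0.793, limma). MCL1, a survival protein, was at 0.74, 0.41, 3.30 and 2.04 FPKM in HMG-5, HMG-7, HMG-9 and HMG-10, and at 0.17 FPKM in HLG-9 only (-0.96 ± 0.33, adjusted p = 0.722, limma). All of these 3 genes were at 0 in HMG-8. Of the cell cycle genes, CDKN1A, an inhibitor of cyclin-dependent kinases, was among the few above 0 in all 10 libraries. It was at 29.05, 3.57, 0.23, 27.52 and 21.89 FPKM in HLG-5, HLG-7, HLG-8, HLG-9 and HLG-10, and at 11.35 to 29.38 FPKM in HMG (-0.91 ± 0.79, adjusted p = 0.861, limma). CDK6, which drives entry into the cell cycle, was at 5.48, 2.90, 5.62 and 0.78 FPKM in HLG-7, HLG-8, HLG-9 and HLG-10 and at no more than 1.27 FPKM in HMG (0.97 ± 0.54, adjusted p = 0.82, limma). The medians were -0.04 for the ovulatory response, 0.14 for gap junctions and adhesion, -0.18 for apoptosis and atresia and -0.06 for the cell cycle. None of the 24 follicle matrix genes passed the filter. COL1A1 was at 0.20 FPKM or less, and COL4A5, a collagen of basement membranes, was at 9.47 FPKM in HMG-8 and at 0 in all HLG libraries.

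**Figure D4:**
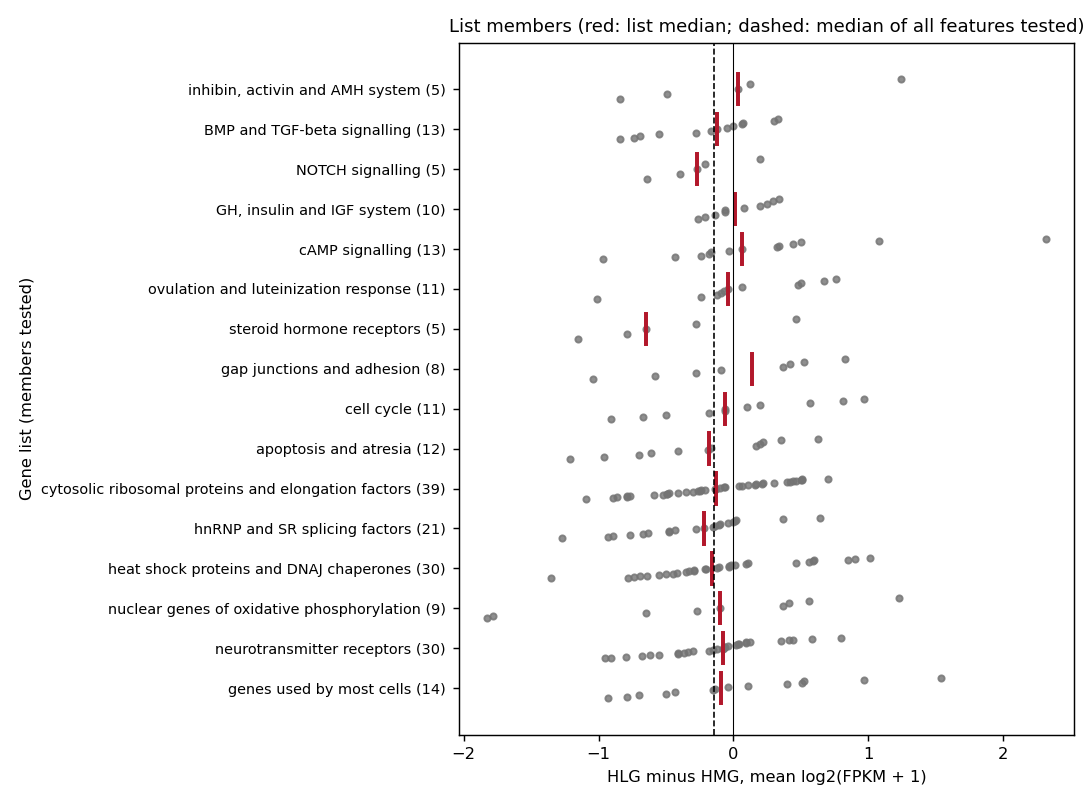
The difference between HLG and HMG in mean log2(FPKM + 1) (x axis) is shown for each tested member (grey points) of the lists with 5 or more tested members (rows), with the list median in red. Most medians lie close to the dashed line at -0.14, the median of all features tested, and that of the steroid hormone receptors lies at -0.65.

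Lists of general cell function were examined next. Beside them, 43.6% of all features were above 0 in more HMG and 18.0% in more HLG libraries. Of 29 hnRNP and SR splicing factors, 15 were above 0 in more HMG (51.7%) and 5 in more HLG libraries (17.2%), with a median of -0.22 over 21 tested. SRSF1 was at 4.40, 0.05, 20.75, 1.72 and 0.35 FPKM in HMG-5, HMG-7, HMG-8, HMG-9 and HMG-10, and at no more than 2.09 FPKM in HLG (-1.27 ± 0.60, adjusted p = 0.793, limma). Of 65 heat shock proteins and DNAJ chaperones, 24 were above 0 in more HMG (36.9%) and 12 in more HLG libraries (18.5%). Their median was -0.16 over 30 tested, and HSPA4L and HSPB3 were above 0 in all 10 libraries. Neurotransmitter receptors, best known from neurons, had 38 of 84 genes above 0 in more HMG libraries (45.2%) and 14 in more HLG libraries (16.7%), near the shares of all features. The glutamate receptor GRIA3 was above 0 in 4 HMG libraries, at up to 3.78 FPKM, and in HLG-10 at 1 FPKM. Of 43 nuclear genes of oxidative phosphorylation, 16 were above 0 in more HMG (37.2%) and 8 in more HLG libraries (18.6%). Only 9 of them were tested, of which 2 were lower and 1 was higher at an unadjusted p under 0.05 (33.3%, against 6.04% of all features tested). ATP5A1, the alpha subunit of ATP synthase, was at 4.15, 38.85, 3.03 and 0.75 FPKM in HMG-7, HMG-8, HMG-9 and HMG-10, and at 0.03 and 1.46 FPKM in HLG-5 and HLG-10 (-1.83 ± 0.62, adjusted p = 0.66, limma). The other pair, ATP5S and ATP5SL, entered the list by name and encode no core subunit. ATP5SL was at 18.67 FPKM in HLG-5, 8.24 in HLG-8 and 1.53 in HMG-9.

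Ribosomal proteins and elongation factors of the cytosol were, by detection, the other way from features in general. Of the 81 genes, 34 were above 0 in more HLG libraries (42.0%, against 18.0% of all features) and 12 in more HMG libraries (14.8%, against 43.6%). This rested on HLG-5, which showed 62 of the 81 genes although it had 1974 features above 0, a number that only HLG-8 and HMG-8 fell below. HLG-10 showed 59, HMG-10 showed 56 and HMG-5 showed 31, while the other 6 libraries showed between 2 and 11. Without HLG-5 and HMG-8 the counts turned, to 8 genes in more HLG and 35 in more HMG libraries. Without HLG-5 and HMG-5 they were 11 and 15, and without HLG-10 and HMG-10 they were 32 and 12. Levels of the 39 tested genes had a median difference of -0.13, near that of all features, with 0 at an unadjusted p under 0.05. RPS3, chosen after its values were seen, was at 90.32 FPKM in HLG-5, 13.56 in HMG-5, 0.47 in HLG-10 and 0.58 in HMG-10, and at 0 in the other 6. EEF1A1, the main elongation factor, was above 0 in 4 libraries of each size, at up to 8.14 FPKM in HLG-5 and 8.36 in HMG-7. RPS15A was above 0 in 4 HLG libraries and 3 HMG libraries, at up to 23.25 FPKM in HMG-5.

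HLG-5 also carried abundant transcripts that most cells use. Of 28 such rows, 10 were above 0 in more HLG libraries (35.7%, against 18.0% of all features) and 8 in more HMG libraries (28.6%, against 43.6%). HLG-5 showed 23, against 3 to 21 in the other HLG libraries and 0 to 20 in the HMG libraries. TPT1, the translationally controlled tumour protein, has more than 1 row in the table. The row tested was at 73.74 FPKM in HLG-5 and 3.61 in HLG-10, and at 0.05 and 0.56 FPKM in HMG-7 and HMG-10. The difference of this row was 1.54 ± 0.73 (limma, unadjusted p = 0.0416, adjusted p = 0.8). Another row, not tested, went the other way, above 0 in 0 HLG libraries and in 1 HMG library at 5.84 FPKM. ENO1, an enzyme of glycolysis chosen after its values were seen, was at 48.76 FPKM in HLG-5 and at no more than 0.17 FPKM in any other library. The other HLG libraries did not share these levels.

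**Figure D5:**
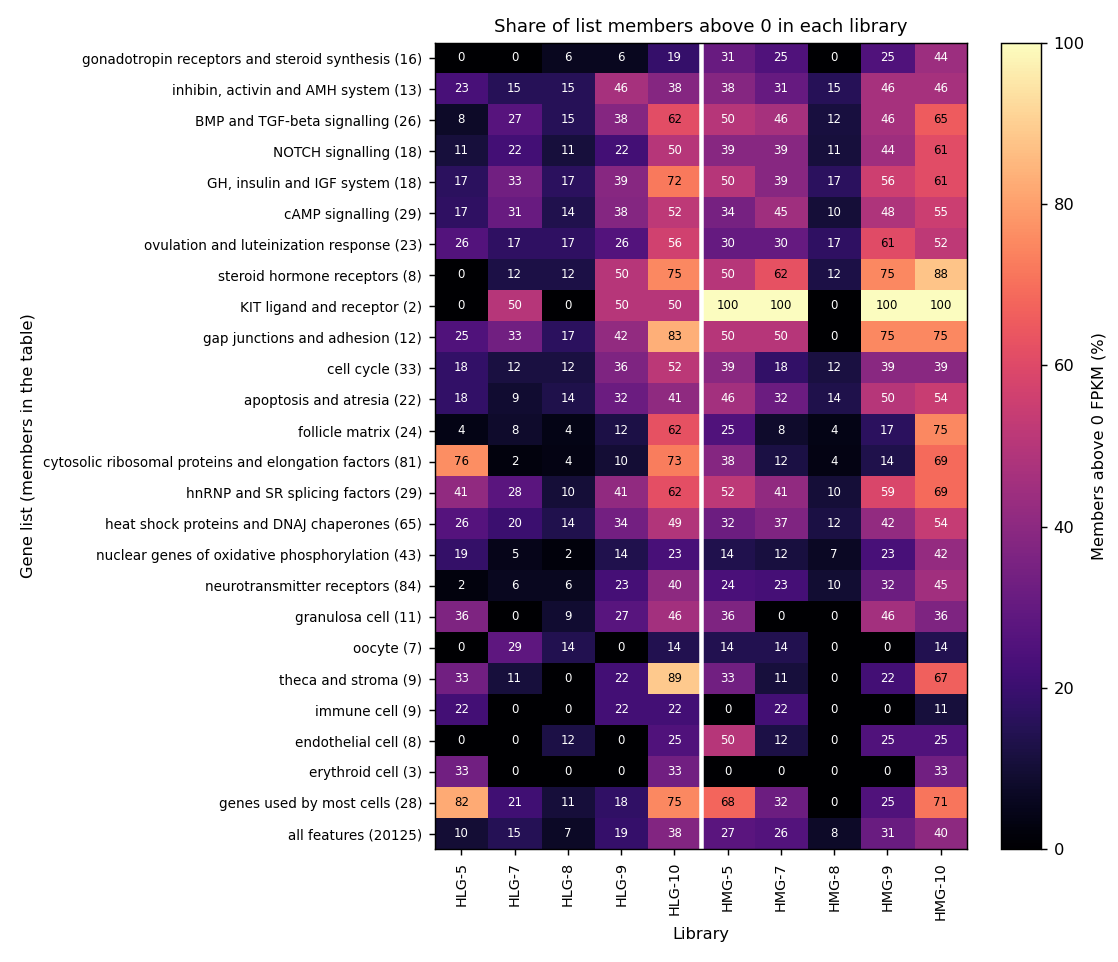
The percentage of list members above 0 FPKM (colour and number) is given for each gene list (rows) in each HLG and HMG library (columns), with all features in the last row. HLG-5 shows a high share for ribosomal proteins and for genes used by most cells and a low share for most other lists.

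The same sizes in the low fertility class were set beside these results. Fewer features were seen in LLG, where 301 to 5843 features were above 0 in a library, than in LMG, where 6330 to 9256 were. In LLG against LMG limma called 0 of 6058 features (0%), with 25 higher and 543 lower at an unadjusted p under 0.05, and 82.0% of all features tested lay below 0, compared with 63.6% in HLG against HMG. With sample quality weights limma called 636 features in LLG against LMG, and 0 in HLG against HMG. When each library's count of features above 0 entered the fit, those at an unadjusted p under 0.05 in LLG against LMG were 154 higher and 106 lower, and the median difference went from -0.351 to 0.022. The part of the low numbers of features in LLG in the following values was not tested. Of the 288 features lower in HLG, 259 were lower in LLG (89.9%, against 82.0% of all features tested). Of the 78 higher in HLG, 16 were higher in LLG (20.5%, against 17.6% of all features tested). RIC8B was above 0 in 1 of 5 LLG and 5 of 5 LMG libraries, with a difference of -0.47 ± 0.61. TFAP4 was above 0 in 1 of 5 libraries of LLG and 1 of 5 of LMG (-0.01 ± 0.29). Small follicles of the high fertility class showed RIC8B in 3 of 5 libraries, TFAP4 in 1 and ZC3H11A in 1. The test of whether the size difference itself differs between the fertility classes called 0 of 6058 features (0%), with a lowest adjusted p of 0.924 and 292 features (4.82%) at an unadjusted p under 0.05 in limma.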

How the data were processed

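Granulosa cell RNA of 30 libraries was measured, and the 5 HLG and 5 HMG libraries were compared. The deposited values are FPKM with 2 decimals for 20125 features. To make them, the authors used uniquely aligned reads without duplicates (picard) as input for Cufflinks, as their methods state. The aligner and genome build are not given in the sources used here. An NCBI gene number names 17946 features, and 2179 have an MXLOC identifier of unstated meaning. Symbols came from the RefSeq gene table of goat assembly ARS1.2 (17945 matched), with its synonyms for CYP11A1, CYP17A1, LDHA and LYZ.

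Features with FPKM above 0.5 in at least 5 of the 30 libraries were tested on log2(FPKM + 1) with limma 3.58.1 (R 4.3.3) with a trended, robust prior and Benjamini-Hochberg adjustment at 0.05. Differences are on that scale, which understates changes of low values, and no fold is given against a group at 0. Single values were compared by two-sided exact permutation tests that enumerate every split of the 10 libraries into 5 and 5 (Python 3.11.15, scipy 1.17.1). Depth was read only from steps between low values of 1155 genes with spans of 700 to 1200 bp, so no counting intervals are given. The limma step and the depth step were tested on simulated data, the latter only with steps inside the range that was searched.

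Genes named were the 10 with the lowest p in each direction, up to 10 seen in 5 of 5 libraries of 1 size and 0 of 5 of the other, the 5 with the highest median in each size, and from each of 25 lists those at an unadjusted p under 0.05 or otherwise the 2 seen in most libraries. All listed granulosa cell and steroid synthesis genes were given by libraries above 0, apart from items that are not reported here. The members and lists were chosen with earlier results of these data known. Alternatives were other pseudocounts, filters, scalings, weights, covariates, a replicate block and leaving out libraries.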

Additional observations from a re-analysis of the deposited data

Results flagged for a closer look

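A library was looked for that lay far from the other 4 of its group, by Dixon's criterion at 95%, in 142 sets of 5 values (library measures, list members above 0, and the levels of 40 genes). In 28 sets a library met it. Chance gives about 1 in 20 sets for values of a normal distribution, which does not hold for genes with many values of 0, since a set with 4 values of 0 and 1 above 0 always meets it. HMG-8 had 786 features at 1 FPKM or more against 2069 to 2588 in the other HMG libraries, 297 at 10 FPKM or more against 109 to 156, and 0 of both KIT genes above 0 against 2. HLG-5 had 78.54% of its FPKM in the features above 0 in all 10 libraries against 87.11% to 89.04%. HLG-10 showed 9 NOTCH genes against 2 to 4, 13 genes of the ovulatory response against 4 to 6 and 15 follicle matrix genes against 1 to 3. HMG-10 showed 1 erythroid gene against 0.

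Among single genes, most such values were a lone library above 0 or close to it. In HLG these were KLHL20 (0.04 FPKM), PIGW (0.33), EGR1 (0.8), ATP5A1 (1.46) and GRIA3 (1) in HLG-10, C28H10orf107 (1.29), TMPO (1.16), MCL1 (0.17) and SRSF1 (2.09) in HLG-9, and SPRY2 (0.04) in HLG-7. In HMG they were DUSP16 (0.12 FPKM), PAPOLB (1.1) and TPT1 (0.56) in HMG-10, RPL7L1 (0.1) and ATP5SL (1.53) in HMG-9, CDH18 (0.02) in HMG-7 and PLPPR1 (1.47) in HMG-5. ZC3H11A was at 22.45 FPKM in HMG-8 and C28H10orf107 at 5.72 FPKM in HMG-5, above the other HMG libraries, and BIRC3 at 0.03 FPKM in HMG-7, below them.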

How the results depend on the processing

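The labels do not state whether libraries of the same number are paired. HLG and HMG libraries of the same number deviated from their group means with correlations of 0.067, 0.025, 0.006, 0.01 and 0.013 for numbers 5, 7, 8, 9 and 10, and only 5 and 7 correlated best with their own number. With the number as a replicate block, limma called 0 features in each of the 3 contrasts, and the block gave -591.2 features at 1 FPKM or more (exact paired test, all 5 pairs in 1 direction, the lowest p that 5 pairs allow) and -0.92 points for the share without an NCBI number (exact paired test, p = 0.4375).

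The 40 named genes were counted only in alternative fits whose filter they passed, from 12 fits for TEX261 to 19 for RIC8B. Of these 664 fits, 661 gave the same direction and no call, 3 gave a call and 0 reversed. The genes were named by p or detection in these same data, so a kept direction is no separate support. For HLG against HMG limma called 1 feature without HMG-8 and 1 without HLG-5 and HMG-8 (TFAP4 in both), and 1 without HMG-5 (TEX261), so single left-out libraries gave 0 to 1. The other alternatives gave 0 calls in HLG against HMG and in the interaction. In LLG against LMG limma called 2 features with a pseudocount of 0.1 and, in fits added after seeing the data, 636 with sample quality weights and 1 with the filter applied to the HLG and HMG libraries. The pseudocount of 0.1 also moved the median difference of all features in HLG against HMG to -0.501. Features at 10 FPKM or more reversed the difference in features, to 55. The difference in correlation was near 0 and reversed to -0.0392 with Pearson correlation and to -0.068 with no filter, and ran from -0.0081 to 0.0065 without single libraries (exact permutation tests, lowest p 0.2381 and 0.5714). Features at 1 FPKM or more differed by -889.75 to -412.45 without single libraries. The ribosomal protein and elongation factor genes seen in more HLG libraries went from 34 to 8 without HLG-5 and HMG-8, and to 11 without HLG-5 and HMG-5; these sets of libraries were chosen after seeing the data. The cause was not tested. In simulated data that kept each value of 0, 1% of 200 features raised 4-fold were called.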
